A study of Mus musculus with 12 samples.

Results

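The genes described here encode the proteins of the cytosolic ribosome. They were chosen by gene name alone: names of Rpl or Rps followed by a number and at most 1 of the letters a, l or x, together with Rplp0, Rplp1, Rplp2 and Rpsa. Pseudogene names, the Rps6k kinases and Rps27rt were left out. Of 35812 gene IDs in the deposited count table, 81 carried such a name and 78 had a mean CPM (a gene's counts scaled to the library total) of at least 5 over 12 libraries. These 78 genes, 46 of the large and 32 of the small ribosomal subunit, lie on 19 chromosomes. The other 3, Rpl3l, Rpl39l and Rpl6l, had means of 0.336, 0.0206 and 0.0128 CPM and were not followed further. Just inside the minimum stood Rps27l with 8.05 CPM. The annotation calls 77 of the 78 genes protein coding and Rps4l a transcribed processed pseudogene, and Rps4l was kept because the choice was by name.

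The 12 libraries hold hippocampal mRNA of C57BL/6 males, all 8 weeks old, made with a stranded kit from 3 mice in each of 4 groups. F0_Ctl were normal males and F0_Dep were males made depressive by stress. F1_Ctl were sons of normal males, and F1_Dep were sons of the stressed, depressive males. The sources used here do not give the form of the stress. Fathers and litters are not named in the labels, so F1 mice of 1 group may be related, and all p-values measure the spread between these mice. Libraries are named by group and the replicate number of their label. Only the labels of F1_Ctl carry sequencing lane names, so sequencing and group cannot be told apart wherever F1_Ctl is compared.

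The ribosome joins a small subunit, which reads the message, to a large subunit, which forms the peptide bond, and each ribosomal protein is needed in about equal number. The messages of these genes begin with a run of pyrimidines, the terminal oligopyrimidine tract, through which the mTORC1 kinase and the protein LARP1 set how strongly they are translated. They are among the most abundant messages of most cells, and in neurons some are also carried into dendrites and axons.

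The start regions of 5 genes are shown for the letters around the start of transcription. They are those of the 3 genes with the highest mean CPM among genes with an entry in the RefSeq promoter table (GRCm38.p6), and those of Rps27 and its paralogue Rps27l. Each run covers 50 bases before to 25 bases after the annotated start, from 5′ to 3′ on the strand of the gene. Capitals mark CTTTCC, a pyrimidine run, and CTTCCG or its reverse complement CGGAAG, the core that transcription factors of the ETS family bind. The runs lie at chr9:64173337-64173411 (+ strand), chr9:120127716-120127790 (+ strand), chr7:45128721-45128795 (- strand), chr3:90213624-90213698 (- strand) and chr9:66946036-66946110 (+ strand).
Rpl4: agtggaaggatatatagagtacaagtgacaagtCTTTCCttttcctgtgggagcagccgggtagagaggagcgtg
Rpsa: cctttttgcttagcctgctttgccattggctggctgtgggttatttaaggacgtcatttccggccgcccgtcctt
Rpl13a: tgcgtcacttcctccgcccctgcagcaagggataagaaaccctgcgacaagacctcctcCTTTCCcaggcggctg
Rps27: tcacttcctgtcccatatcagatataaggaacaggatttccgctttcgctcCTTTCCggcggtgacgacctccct
Rps27l: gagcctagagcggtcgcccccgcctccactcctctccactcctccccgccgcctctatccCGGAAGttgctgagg
CTTTCC stood in the runs of Rpl4, Rpl13a and Rps27, CGGAAG in that of Rps27l, and none of these letters in that of Rpsa. The table held 68 windows of 300 bases for 57 of the 78 genes. On the strand of the gene, within 20 bases before to 30 after the start, CTTTCC stood in 11 of 68 member windows (16.2%) and in 2.4% of all 32851 windows. On either strand of the whole window, CTTCCG stood in 43 of 68 (63.2%) against 16.9% of all windows, and CTTTCC in 34 of 68 against 26.6%. The first transcribed base was C or T in 44.1% of member windows and in 30% of all windows. TATAA, the core of the TATA box, stood in 23.5% of member windows against 24.9%, and AAGATGG, the core bound by YY1, in 16.2% against 6.34%. CTTTCC and CTTCCG can overlap, and several windows belong to 1 gene. These are matches of letters to annotated starts and not measured sites. Whether they bear on the shared movement of the members across libraries, described further on, was not tested.

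Library totals ran from 18277208 to 23083678 counts, so that counting error was small for these genes. Pyramidal cell markers of the hippocampus were present in all 12 libraries, with summed levels of 1125 to 2001 CPM. Choroid plexus markers, from tissue next to the hippocampus, summed to 161 to 12167 CPM and were highest in F0_Ctl 3, F1_Ctl 3 and the 3 F1_Dep libraries. Striatum markers summed to 1954 CPM in F1_Dep 1 and to 300 to 543 CPM elsewhere.

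In CPM, the members spanned 8.05 for Rps27l to 448 for Rpl4, with a median of 104. Levels of different genes are compared per length, in FPKM, which divide fragments by transcript length and library size and which 9 libraries had (F0_Ctl, F0_Dep and F1_Dep). The median member had 143 FPKM. Rplp1, an acidic protein of the stalk that recruits translation factors, was highest with 423 FPKM, followed by Rps15 with 324 and Rpl13 with 303. Rps27l, a paralogue induced by p53, was lowest with 13.2, then Rps4l with 19.8 and Rps20 with 32.6. The member transcripts were short, with a median of 882 bases against 2997 bases for all 16178 genes tested, and 50 of the 78 were under 1000 bases.

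The members moved together from library to library. On log2 CPM centred on each gene's own mean, a single component held 90.6% of their variance, and 91.8% when group means were removed first. The median member had r = 0.97 with the median of the other members over the 12 libraries, and 70 of 78 had at least 0.9. These r describe 12 libraries whose members share depth and scaling. The highest library was F1_Ctl 3 for 73 of the 78 genes, and the lowest was F0_Dep 3 for 51. The lowest r were those of Rpl12 (0.51), Rps14 (0.73), Rpl5 (0.74), Rpl10a and Rps4l (0.80 each), Rps27 (0.84), Rpl28 (0.88) and Rpl10 (0.89). Of these, Rpl12, Rps14 and Rpl5 are genes whose counts and FPKM disagreed, as described further on.

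As a share of all counts, the 78 genes took 1.13, 0.832 and 1.01% in the 3 F0_Ctl libraries, in the order of their replicate numbers. The shares were 0.838, 0.759 and 0.733% in F0_Dep. F1_Ctl had 0.876, 1.31 and 1.45%, and F1_Dep had 0.932, 0.8903 and 0.9096%. F0_Dep 1 lay between F0_Ctl 2 and F0_Ctl 3, so these groups overlapped, while all F0_Dep libraries were below all F1_Dep libraries. The group means were 0.990 ± 0.151% for F0_Ctl, 0.777 ± 0.055% for F0_Dep, 1.21 ± 0.299% for F1_Ctl and 0.911 ± 0.021% for F1_Dep (SD, n = 3). In the FPKM values, of which the members made up a larger share, the shares were 3.54, 2.697 and 3.25% in F0_Ctl, 2.72, 2.47 and 2.39% in F0_Dep and 2.97, 2.81 and 2.89% in F1_Dep. The 9 libraries stood in the same order in FPKM as in counts, from F0_Dep 3 up to F0_Ctl 1. In bulk tissue, fewer cells of a type that is rich in these messages and less of them per cell cannot be told apart.

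**Figure D1:**
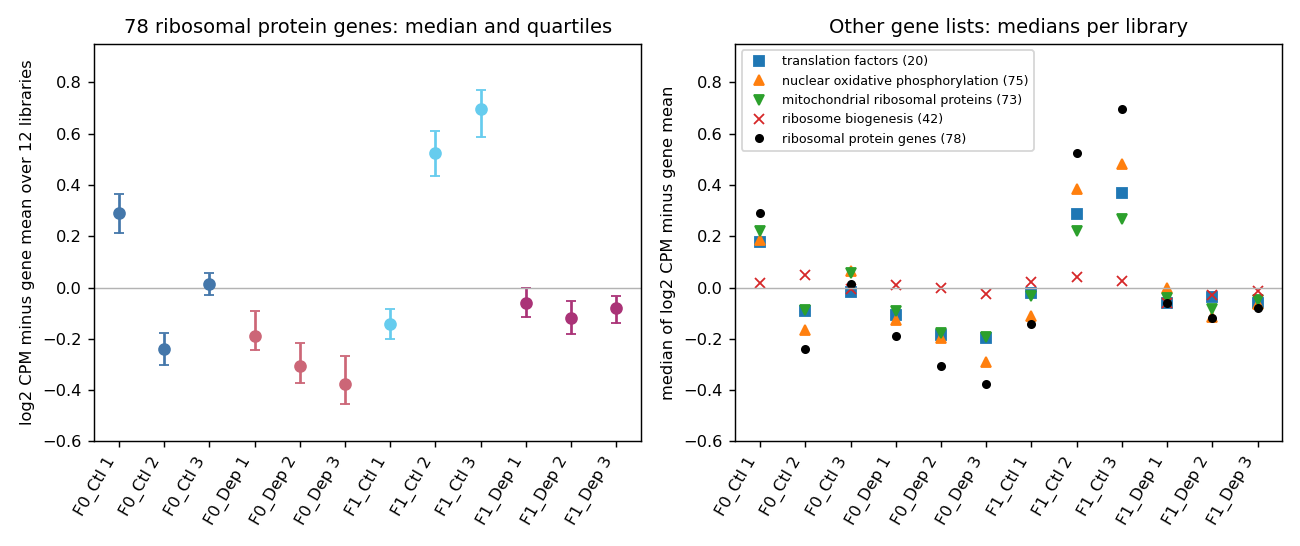
Median level of the 78 ribosomal protein genes in each library with its quartiles over genes (left), and the medians of other gene lists (right), both as log2 CPM minus each gene's mean over 12 libraries. F1_Ctl 2 and F1_Ctl 3 stand highest with 0.53 and 0.70, F1_Ctl 1 stands at -0.14, and F0_Dep 3 is lowest with -0.38.

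Libraries differed widely within F0_Ctl and F1_Ctl and little within F0_Dep and F1_Dep. F1_Ctl 2 and F1_Ctl 3 had 78 of 78 members above the gene's own mean, whereas F1_Ctl 1 had 76 of 78 below it. In F0_Ctl, library 1 had all 78 above and library 2 had 77 below. The 3 F0_Dep libraries had 72 to 77 members below their mean, and the 3 F1_Dep libraries had 60 to 71 below. Members of both subunits took part, as the colour plot of all members by library shows.

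**Figure D2:**
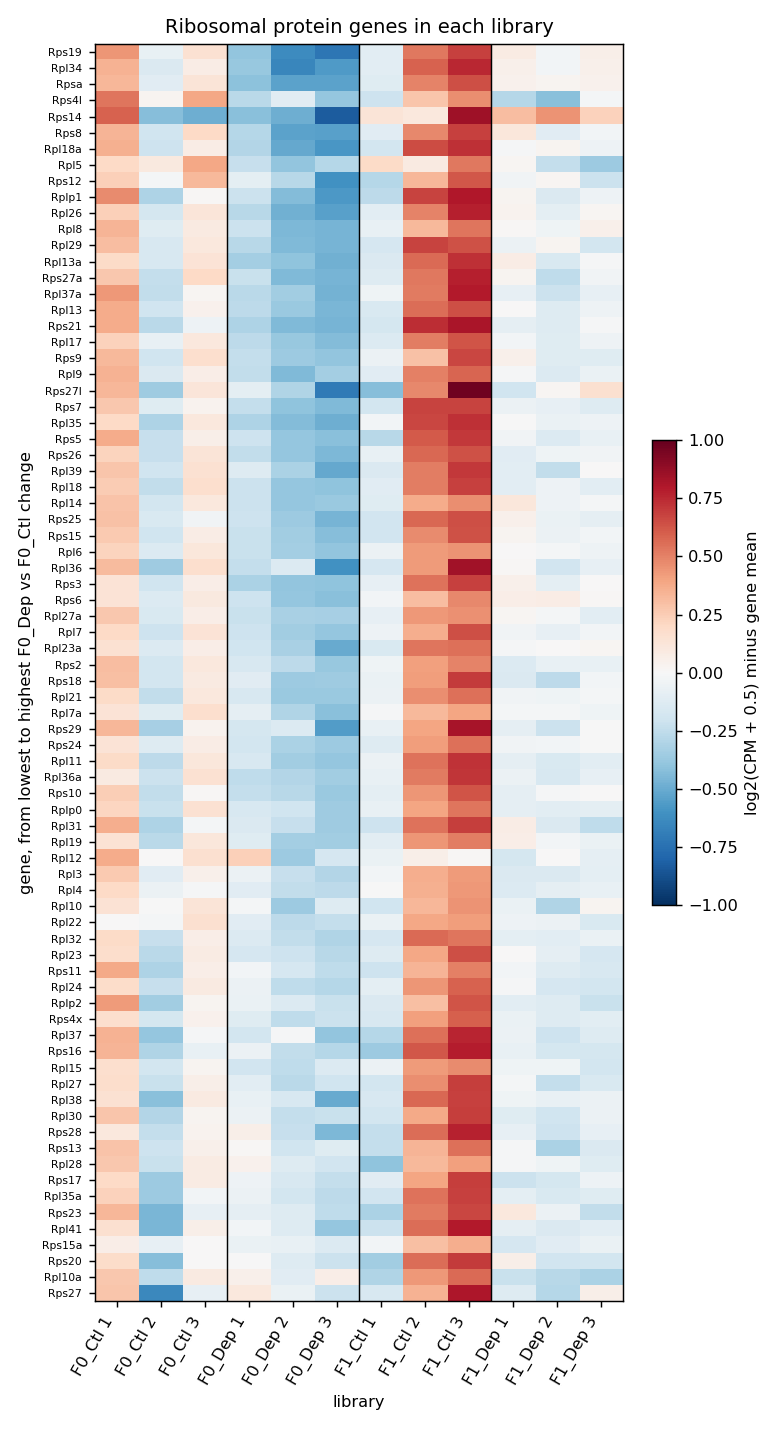
Each of the 78 genes (vertical axis, ordered by its F0_Dep vs F0_Ctl change) in each of 12 libraries (horizontal axis), coloured by log2(CPM + 0.5) minus the gene's mean. The columns of F1_Ctl 2, F1_Ctl 3 and F0_Ctl 1 are red over nearly the whole list and those of F0_Dep 2 and F0_Dep 3 blue, and Rps14, Rpl12 and Rps27 depart from their neighbours.

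The first comparison asks how the hippocampus of stressed, depressive males differed from that of normal males. Ribosomal protein genes had lower fitted levels in F0_Dep than in F0_Ctl for 77 of 78 members, and the median of their log2 fold changes was -0.33. Over all 16178 genes, 54.6% were lower and the median was -0.04. By edgeR's quasi-likelihood test with Benjamini-Hochberg adjustment over all genes, none of the 78 passed an adjusted p of 0.05, while 0.148% of all genes passed as lower and 0.346% as higher. At an unadjusted p under 0.05, 19 of 78 were lower and none higher, against 9.39% of all genes lower. The large subunit had a median of -0.29 (46 genes) and the small subunit -0.35 (32 genes). All 3 F0_Dep libraries lay below all 3 F0_Ctl libraries for 30 of 78 members in scaled CPM, against 13.8% of all genes.

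The lowest fitted change was that of Rps19 (chromosome 7, 24884371 to 24889806), a small subunit protein whose loss causes Diamond-Blackfan anaemia. Rps19 had 89.1, 62.2 and 72.9 CPM in F0_Ctl and 49.6, 42.2 and 39.5 in F0_Dep. The groups did not overlap, and the log2 fold change was -0.74 ± 0.20 (SE, edgeR adjusted p = 0.0905). Rpl34, a large subunit protein (chromosome 3, 130726831 to 130730398), had 96.2, 68.1 and 79.7 CPM in F0_Ctl and 57.98, 47.8 and 50.9 in F0_Dep. Its groups did not overlap either, with -0.61 ± 0.20 (edgeR adjusted p = 0.142). Rpsa, the small subunit protein also known as the laminin receptor (chromosome 9, 120127689 to 120132369), had 399, 292 and 344 CPM in F0_Ctl and 237, 218 and 217 in F0_Dep. Rpsa was again lower in every F0_Dep library, with -0.59 ± 0.18 (edgeR adjusted p = 0.118). The smallest adjusted p among members, 0.0852, was that of Rpl5, which carries the small 5S RNA into the large subunit and binds Mdm2, with -0.51 ± 0.13. Rpl5 was named after its values were seen and is 1 of the genes whose counts and FPKM disagreed.

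At the other end stood members with hardly any difference in counts. Rps27 had 63.5, 33.2 and 49.3 CPM in F0_Ctl and 56.1, 49.8 and 44.8 in F0_Dep, where the F0_Dep values lie inside the range of F0_Ctl, and its log2 fold change was 0.07 ± 0.26. Rpl10a, Rps20, Rps15a and Rpl41 had -0.02 ± 0.20, -0.03 ± 0.24, -0.06 ± 0.11 and -0.09 ± 0.23, with edgeR adjusted p from 0.806 to 0.963. The genes with the highest CPM lay between these ends. Rpl4, which lines the exit tunnel, had 509, 426 and 439 CPM in F0_Ctl and 408, 374 and 369.8 in F0_Dep, with -0.22 ± 0.13. Rpl3, next to the peptidyl transferase centre, had -0.23 ± 0.14, Rpl13a -0.44 ± 0.19 and Rpl13 -0.43 ± 0.20. Rps6, the substrate of the S6 kinases, had 261, 216 and 254 CPM against 205, 181 and 178, without overlap, and -0.34 ± 0.13 (edgeR adjusted p = 0.193).

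**Figure D3:**
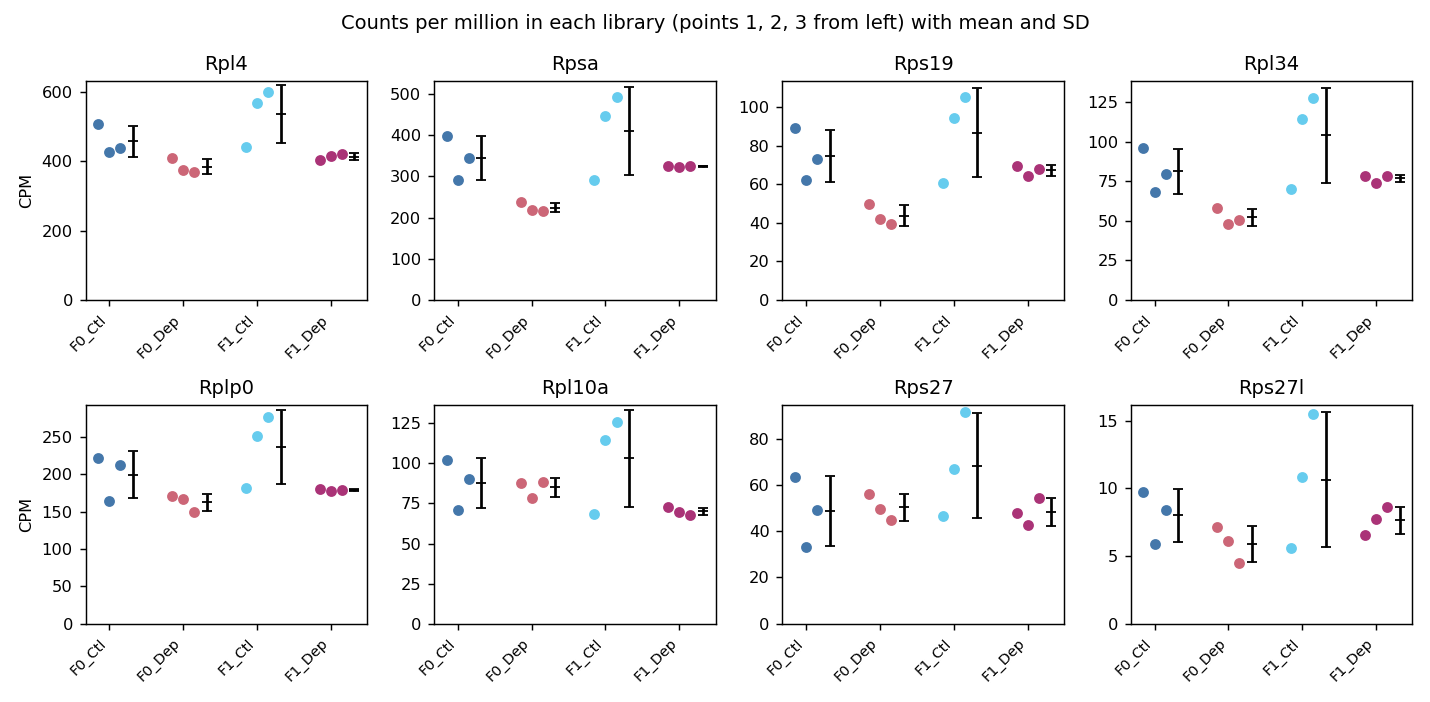
CPM of 8 named genes in each library (points, replicates 1, 2 and 3 from left to right) with the group mean and SD (n = 3) beside them. F0_Dep lies below F0_Ctl without overlap for Rpl4, Rpsa, Rps19 and Rpl34 but not for Rplp0, Rpl10a, Rps27 and Rps27l. F1_Ctl 1 is the lowest F1_Ctl library in all 8.

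The FPKM values gave more calls in this comparison. With limma on log2(FPKM + 1) over 13820 genes, 34 of 78 members fell in F0_Dep and none rose, against 9.73% of all genes that fell. The median member changed by -0.40 on that scale, against -0.02 over all genes, and all 78 were lower. All 3 F0_Dep libraries were below all F0_Ctl libraries for 40 members in FPKM, against 19.1% of all genes. Rps19 fell from 129.6, 88.3 and 109 FPKM to 61.5, 50.03 and 50.5, a log2 change of -0.99 ± 0.14 (limma adjusted p = 0.012). Rpsa fell by 0.66 (adjusted p = 0.0147), Rps4l by 0.83 (0.015), Rpl13 by 0.71 (0.0177), Rpl34 by 0.59 (0.0186) and Rpl13a by 0.64 (0.0186), all by limma. Rps20 and Rpl28 fell by 0.64 and 0.56 in FPKM (limma adjusted p = 0.0436 and 0.0289) while their fitted changes in counts were -0.03 ± 0.24 and -0.12 ± 0.20.

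The count of members called rested on single libraries. In FPKM, limma called 62 members lower without F0_Ctl 2 (15.2% of all genes), 28 without F0_Dep 1 (6.8%), 12 without F0_Ctl 1 (6.47%) and 11 without F0_Ctl 3 (5.49%). Without F0_Dep 2 or F0_Dep 3 it called 0 members, and 0.00724% and 0.0145% of all genes. It called 21, 18 and 17 members without F1_Dep 1, 2 and 3 (8.23%, 5.89% and 5.8% of all genes), and 20 with a pseudocount of 0.1 (8.38%). The share of all genes called thus moved with the same omissions. In counts, DESeq2 and limma voom with library weights each called Rpl5, Rps19 and Rpsa as lower, 3 members, against 1.91% and 0.847% of all genes, and edgeR called Rpl34, Rps19 and Rpsa without F1_Ctl 1, against 0.789% of the genes in that fit. Without F0_Ctl 1, the fitted median in counts was -0.18.

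The second comparison sets sons of stressed, depressive males against sons of normal males. All 78 members had lower fitted levels in F1_Dep than in F1_Ctl, with a median of -0.50, against 53.1% of all genes lower and a median of -0.02. By edgeR none passed an adjusted p of 0.05, while 0.124% of all genes passed as lower and 0.0433% as higher. At an unadjusted p under 0.05, 66 of 78 were lower and none higher, against 8.49% of all genes lower. The subunits had medians of -0.51 (large) and -0.48 (small). All F1_Dep libraries lay below all F1_Ctl libraries for 9 of 78 members, against 10.3% of all genes.

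This difference was carried by 2 of the 3 F1_Ctl mice. Rps21, a small subunit protein and the member with the lowest fitted change (chromosome 2, 180257377 to 180258445), had 49.01, 92.5 and 97.98 CPM in F1_Ctl and 52.01, 50.4 and 54.97 in F1_Dep. F1_Ctl 1 lay below all F1_Dep libraries and the other F1_Ctl libraries far above, and the log2 fold change was -0.66 ± 0.24 (edgeR adjusted p = 0.229). Rpl37a, a zinc-binding large subunit protein, had 60.9, 90.2 and 109.5 CPM in F1_Ctl and 59.4, 54.03 and 59.5 in F1_Dep, with -0.65 ± 0.21. Rps16, Rps28 and Rpl10a had -0.63 ± 0.26, -0.61 ± 0.23 and -0.61 ± 0.20, with edgeR adjusted p of 0.279, 0.243 and 0.205. Rpl10a had 68.7, 115 and 126 CPM in F1_Ctl and 72.5, 69.6 and 67.9 in F1_Dep, again with F1_Ctl 1 beside F1_Dep. In Rpl4, with 442, 567 and 599 CPM against 403, 416 and 422, the groups did not overlap, and the fitted change was -0.43 ± 0.13 (edgeR adjusted p = 0.168). The smallest changes were those of Rps14 (-0.13 ± 0.31), Rpl12 (-0.14 ± 0.17), Rpl28 (-0.27 ± 0.20), Rps6 (-0.28 ± 0.13) and Rpl14 (-0.30 ± 0.16).

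Leaving out F1_Ctl 1 turned the result into 63 members called lower by edgeR, against 2.55% of all genes in that fit, with a median of -0.71. In that fit Rps21 had -0.93 (edgeR adjusted p = 0.0221), Rps16 -0.92 (0.0234) and Rpsa -0.61 (0.0316), and Rpl12 and Rps14 had -0.20 and -0.27 with adjusted p of 0.587 and 0.694. Without F1_Ctl 3 the median was -0.30, and without F1_Ctl 2 it was -0.37, with 0 members called by edgeR in both. Limma voom with library weights called 67 members lower, against 5.56% of all genes, and DESeq2 called 4 (Rpl4, Rpl5, Rpl11 and Rps15a), against 1.76%. F1_Ctl 1 was left out only as each library was in turn, and the labels do not set it apart from the other F1_Ctl mice.

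**Figure D4:**
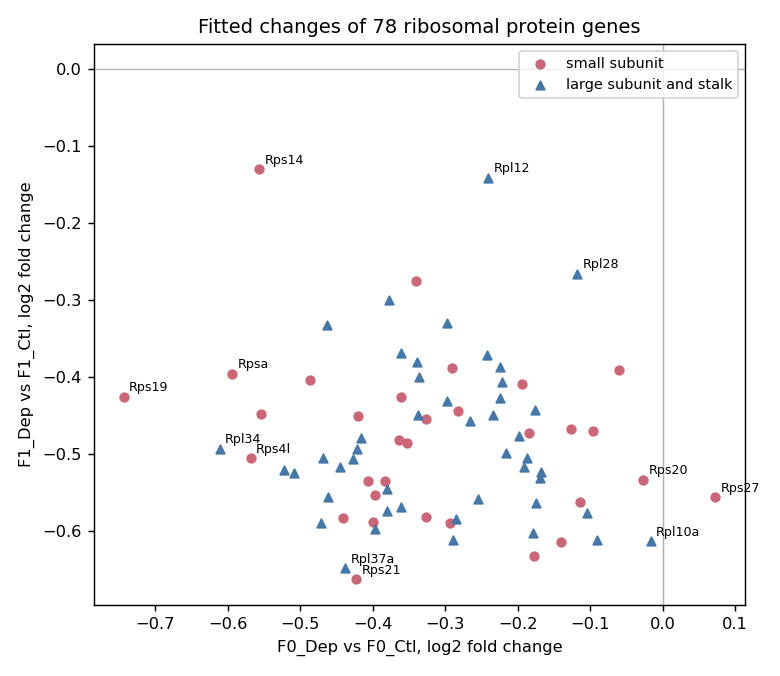
Fitted log2 fold change of each of the 78 genes in F0_Dep vs F0_Ctl (horizontal) and F1_Dep vs F1_Ctl (vertical), with small subunit genes as circles and large subunit genes as triangles. All but Rps27 (0.07) lie left of 0 and all lie below 0. Rps19 is farthest left, and Rps14, Rpl12 and Rpl28 are nearest to 0 in the vertical.

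Whether the change differed between generations was tested as an interaction in the same fit. The median of the members was -0.16 (F1 change minus F0 change) against 0.00 over all genes. The difference was below 0 for 66 of 78 members, against 49.7% of all genes. EdgeR called 0 of the 78 members, against 0.0433% of all genes as lower and 0.0247% as higher, and 0 at an unadjusted p under 0.05, against 7.41% lower. DESeq2 and limma voom called 0 members too, against 2% and 1.22% of all genes lower. The largest differences had wide errors, such as -0.63 ± 0.37 for Rps27 and -0.60 ± 0.29 for Rpl10a, and the smallest edgeR adjusted p was 0.393 for Rps15a. The median was 0.00 without F1_Ctl 3 and -0.37 without F1_Ctl 1.

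The remaining comparisons share libraries with those above and are given by their own values. In F1_Ctl against F0_Ctl, the sons and the generation of the fathers without stress, 76 of 78 members were higher, against 54% of all genes, with a median of 0.38, against 0.02 over all genes. EdgeR called 0 members and 0% of all genes in this comparison, and DESeq2 and limma voom also called 0 members. At an unadjusted p under 0.05, 21 members were higher, against 2.82% of all genes. Without F1_Ctl 1, edgeR called 35 members higher, against 0.928% of all genes. Rpl34 had 0.42 ± 0.20, Rpl4 0.28 ± 0.13 and Rps4l -0.07 ± 0.20 with all libraries in the fit.

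In F1_Dep against F0_Dep, 69 of 78 members were higher, against 50.8% of all genes, with a median of 0.21, against 0.01 over all genes. EdgeR called 0 members, against 1.31% of all genes higher and 1.56% lower, and 5 members were higher at an unadjusted p under 0.05, against 11.3% of all genes. All 3 F1_Dep libraries lay above all F0_Dep libraries for 40 members in scaled CPM, against 22.6% of all genes. Fitted on these groups alone, edgeR called 33 members higher and 1, Rpl10a, lower, against 12.6% and 11.4% of all genes. Limma voom called 24 higher and Rpl10a lower, against 15.4% and 14.4%, and DESeq2 called 2 higher, Rps14 and Rps19, against 4.49%. In FPKM, limma called 5 members higher (Rps12, Rps19, Rpsa, Rpl34 and Rpl22), against 6.3% of all genes. Rpsa had 237, 218 and 217 CPM in F0_Dep and 324, 322 and 325 in F1_Dep, with 0.51 ± 0.18 in counts (edgeR adjusted p = 0.134) and 0.52 ± 0.12 in FPKM (limma adjusted p = 0.0344). Rps19 had 49.6, 42.2 and 39.5 against 69.3, 64.1 and 68.2 CPM, with 0.59 ± 0.20 (edgeR adjusted p = 0.115). Rpl10a went the other way in counts, with 87.8, 78.4 and 88.7 against 72.5, 69.6 and 67.9 CPM and -0.30 ± 0.20, but had 0.13 ± 0.14 in FPKM. In FPKM limma called 8, 12 and 21 members higher without F0_Ctl 3, 1 and 2, against 10.6%, 10.2% and 9.6% of all genes. It called 2 (Rps12 and Rps19) without F0_Dep 1 and 1 (Rps12) without F1_Dep 2, against 1.51% and 1.17%. Without F0_Dep 2, F0_Dep 3, F1_Dep 1 or F1_Dep 3 it called 0, against 0.00724%, 0%, 0.514% and 0.217%.

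In F1_Dep against F0_Ctl the members had a median of -0.12, against -0.01 over all genes, with 76 of 78 lower, against 52.5% of all genes. EdgeR called 0 members and 0% of all genes, DESeq2, limma voom and limma on FPKM called 0 members (against 0.995%, 0.0371% and 0.0651% of all genes lower), and 2 members were lower at an unadjusted p under 0.05, against 6.3% of all genes. Without F0_Ctl 1 the median was 0.03. The member farthest from 0 was Rps4l, with 24.7, 17.2 and 22.3 CPM in F0_Ctl and 13.7, 12.5 and 16.6 in F1_Dep, without overlap, and -0.58 ± 0.20 (edgeR adjusted p = 0.25).

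The stalk of the large subunit is built by Rplp0 with the acidic proteins Rplp1 and Rplp2. Rplp0 (chromosome 5, 115559467 to 115563727) had 222, 164 and 213 CPM in F0_Ctl and 171, 167 and 149 in F0_Dep. F1_Ctl had 181, 251 and 277, and F1_Dep had 180.1, 178 and 179. F0_Dep 1 and F0_Dep 2 lay just above F0_Ctl 2, so the groups overlapped. Rplp1 had 315, 182 and 228 CPM in F0_Ctl and 195, 167 and 151 in F0_Dep. F1_Ctl had 189, 362 and 394, and F1_Dep had 230.4, 204 and 219. F0_Dep 1 again lay above F0_Ctl 2. The fitted changes of Rplp0, Rplp1 and Rplp2 in F0_Dep against F0_Ctl were -0.27 ± 0.16, -0.47 ± 0.26 and -0.19 ± 0.21, and in F1_Dep against F1_Ctl -0.46 ± 0.16, -0.59 ± 0.26 and -0.51 ± 0.21, none called by edgeR. In FPKM limma called Rplp0 lower in F0_Dep, by 0.46 (adjusted p = 0.0426), and did not call Rplp1 or Rplp2, which had lower fitted values too (adjusted p = 0.0689 and 0.122). Whether the stalk genes differ from each other was not tested.

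Rps27a among the members, and Fau outside them by name, encode ribosomal proteins made as fusions with ubiquitin or a ubiquitin-like protein. Rps27a had 129.9, 91.2 and 124 CPM in F0_Ctl and 92.2, 78.95 and 77.7 in F0_Dep, where F0_Dep 1 reached just above F0_Ctl 2, with -0.44 ± 0.21 in counts and -0.56 ± 0.14 in FPKM (limma adjusted p = 0.0272). Fau had only 1.68 CPM on average but 163 FPKM. Its FPKM fell from 222, 153 and 204 in F0_Ctl to 134, 114 and 112 in F0_Dep, by 0.67 on the log2 scale (limma adjusted p = 0.0184). Rps3a1 and Rack1, 2 further ribosome components with other names, had -0.29 ± 0.17 and -0.33 ± 0.15 in F0_Dep against F0_Ctl, and -0.49 ± 0.17 and -0.42 ± 0.15 in F1_Dep against F1_Ctl, none called by edgeR.

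Among paralogues, Rps27l had 9.75, 5.87 and 8.37 CPM in F0_Ctl and 7.13, 6.13 and 4.49 in F0_Dep. F1_Ctl had 5.58, 10.9 and 15.5, and F1_Dep had 6.59, 7.75 and 8.59. Its lowest library was F0_Dep 3, while that of its parent Rps27 was F0_Ctl 2. Its changes were -0.41 ± 0.34 in F0_Dep against F0_Ctl and -0.53 ± 0.33 in F1_Dep against F1_Ctl. Rpl22l1, the paralogue of Rpl22, had -0.50 ± 0.22 and -0.83 ± 0.22 (edgeR adjusted p = 0.246 and 0.127). Rps4l had 24.7, 17.2 and 22.3 CPM in F0_Ctl and 13.9, 15.6 and 12.8 in F0_Dep. F1_Ctl had 14.6, 20.5 and 23.5, and F1_Dep had 13.7, 12.5 and 16.6. The lowest library of Rps4l was F1_Dep 2, where the median member stood at -0.12.

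Near-identical copies can take reads from a gene or lend reads to it. At 95% identity over at least 50% of the transcript, 47 of the 78 members had 1 or more of 336 copies in the count table, and 5 copies had a mean of at least 5 CPM. Rps12-ps3 held 128 CPM against 19.4 for Rps12, Gm10275 held 122.9 against 12.3 for Rpl12, and Rpl10-ps3 held 95.03 against 99.4 for Rpl10. Rpl10a-ps1 held 16.3 CPM against 86.4 for Rpl10a, and Rps27rt 5.46 against 53.9 for Rps27. These 5 copies match their member without a mismatch over 494 of 584, 634 of 1242, 737 of 855, 648 of 729 and 341 of 345 transcript bases, in that order. Summed with its copy, Rps12 had 167, 126 and 159 CPM in F0_Ctl and 106, 94.9 and 91.7 in F0_Dep. F1_Ctl had 129.7, 204 and 234, and F1_Dep had 156, 145 and 152. F0_Dep lay below F0_Ctl without overlap. Summed with its copy, Rpl12 had 154, 118 and 134 CPM in F0_Ctl and 116, 102 and 94.99 in F0_Dep. F1_Ctl had 116, 204 and 197, and F1_Dep had 132, 124 and 129.5. In this sum F1_Ctl 2 and 3 stood highest, as they did for most members, but not for the counts of Rpl12 alone.

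In some of these copies the division of reads differed between groups. Rps27rt (chromosome 9, 114982366 to 114982739) had 7.05, 9.37 and 7.19 CPM in F0_Ctl and 1.35, 0.565 and 0.286 in F0_Dep. F1_Ctl had 5.497, 7.27 and 8.37, and F1_Dep had 3.88, 9.74 and 4.99. In FPKM it had 9.904, 7.79 and 7.304 in F0_Ctl and 6.15, 5.86 and 6.94 in F0_Dep, so the large drop stood in the counts alone. The copy held 13.9% of the sum of Rps27 and Rps27rt in F0_Ctl and 1.44% in F0_Dep. F1_Ctl had 9.35%, and F1_Dep had 11.4%. That sum had 70.6, 42.5 and 56.5 CPM in F0_Ctl and 57.4, 50.3 and 45.1 in F0_Dep, still overlapping. Rpl10a-ps1 had 28.3, 15.3 and 19.6 CPM in F0_Ctl and 8.54, 8.65 and 0.281 in F0_Dep, so F0_Dep 3 was far below the rest. It held 19.4% of its sum with Rpl10a in F0_Ctl and 6.41% in F0_Dep. F1_Ctl had 16.7%, and F1_Dep had 20.2%. Rpl10-ps3 held 49.4%, 37.9%, 52.2% and 52.3% of its sum with Rpl10 in the same order. The summed CPM of Rpl10a was 130.3, 86.4 and 109.6 in F0_Ctl and 96.3, 87.05 and 88.9 in F0_Dep, which overlapped by F0_Ctl 2. Single-gene values of Rps27, Rpl10a, Rpl10, Rpl12 and Rps12 in counts are therefore uncertain.

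Counts per kilobase and FPKM otherwise gave members like levels, with a median ratio of 1.01. The ratio was lowest for Rps14 (0.06), Rpl12 (0.123), Rpl5 (0.136) and Rps12 (0.158), then Rpl18 (0.244) and Rps15a (0.351). Rps14 had 16.4, 7.88 and 7.52 CPM in F0_Ctl and 7.94, 7.55 and 5.82 in F0_Dep. F1_Ctl had 11.8, 11.7 and 19.8, and F1_Dep had 13.5, 14.9 and 12.7. In FPKM it had 329, 215 and 274 in F0_Ctl, 224, 195 and 191 in F0_Dep and 259, 234 and 276 in F1_Dep. Rps14, Rpl5, Rpl12 and Rpl18 each overlap a gene on the other strand in the annotation, Ndst1, Fam69a, Lrsam1 and Sphk2. The sources used here do not say whether the counting used strand, and the part of these overlaps in the low counts was not tested. The ratio also rests on the transcript length used, which was 2989 bases for Rpl18 and 5179 bases for Rps15a. Summed with their copies, Rpl12 and Rps12 had means of 135 and 147 CPM, against 12.3 and 19.4 CPM alone. Without the 4 genes under a ratio of 0.2, the median changes of the other 74 were -0.31 in F0_Dep against F0_Ctl and -0.50 in F1_Dep against F1_Ctl.

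**Figure D5:**
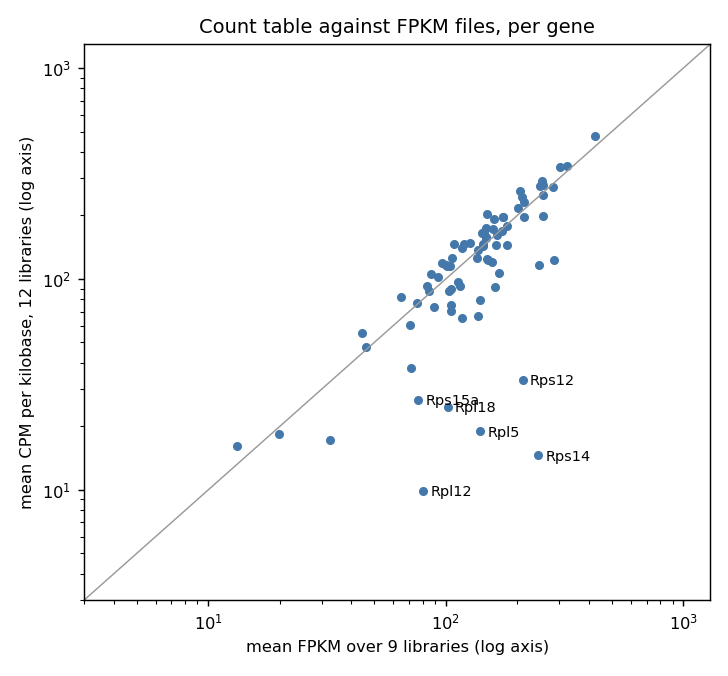
Mean CPM per kilobase of transcript in the count table (vertical, log axis, 12 libraries) against mean FPKM (horizontal, log axis, 9 libraries), 1 point per gene, with the line of equal values. Most of the 78 genes lie along the line, and the 6 labelled genes lie below it, Rps14 and Rpl12 farthest.

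Genes that work with the ribosome were read from lists, with their fitted medians in F0_Dep against F0_Ctl and in F1_Dep against F1_Ctl. Of 20 genes for translation factors and other proteins, Rack1 among them, whose messages also carry the pyrimidine tract, 19 were lower in each. The medians were -0.19 and -0.27, with no call by edgeR. Eef1g, a subunit of the elongation factor complex that loads aminoacyl-tRNA, had -0.38 ± 0.10 in F0_Dep against F0_Ctl (edgeR adjusted p = 0.0825). Ribosome biogenesis genes, which build and mature the subunits, had medians of -0.02 and -0.08 over 42 genes and levels within 0.06 of their mean in every library. The mTORC1 pathway with regulators of these messages had 0.20 and 0.02 over 24 genes, with none called. In F0_Dep against F0_Ctl 16 of them were higher and 8 lower, and in F1_Dep against F1_Ctl 13 were higher and 11 lower. In that list Larp1, whose protein binds the pyrimidine tract, had 92.6, 118 and 114 CPM in F0_Ctl and 143, 144 and 140.3 in F0_Dep, without overlap, with 0.43 ± 0.09 (edgeR adjusted p = 0.0591). Mtor had 0.39 ± 0.12 in the same comparison (edgeR adjusted p = 0.12), and Larp1 and Mtor had 0.21 ± 0.09 and 0.19 ± 0.12 in F1_Dep against F1_Ctl. Myc, also of this list, had -0.11 ± 0.16 in F0_Dep against F0_Ctl. For scale, other genes with transcripts of 4000 bases or more had a median of 0.12 in F0_Dep against F0_Ctl.

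Several other gene classes stood high and low in many of the same libraries. Mitochondrial ribosomal protein genes, of which 73 were tested, had medians of -0.22 and -0.23 in the 2 comparisons, with 67 and 69 lower. The 75 nuclear genes of oxidative phosphorylation had -0.22 and -0.33, with 66 and 70 lower. The 13 mitochondrially encoded genes had -0.56 and -0.44, with 2 and 0 called lower by edgeR, and their share of counts was 9.26, 7.75 and 7.78% in F0_Ctl and 5.11, 5.32 and 5.09% in F0_Dep. F1_Ctl had 7.45, 9.22 and 10.9%, and F1_Dep had 7.02, 7.17 and 6.698%. Of all other genes, the 1072 with transcripts under 1000 bases had medians of -0.22 and -0.23, with 786 and 760 lower. The 5112 with transcripts of 4000 bases or more had 0.12 and 0.04, with 1595 and 2139 lower. The short ones had levels of -0.04, 0.20 and 0.34 in F1_Ctl and 0.17, -0.10 and 0.10 in F0_Ctl, in the order of replicates, so the libraries with high ribosomal protein genes also had high short transcripts. Microglia markers had levels of -0.37, 0.57 and 0.51 in F1_Ctl and 0.32, -0.28 and -0.22 in F0_Ctl, with summed levels of 290 to 500 CPM over all libraries and 10 of 10 genes detected. Astrocyte markers had -0.16, 0.33 and 0.39 in F1_Ctl and 0.12, -0.03 and -0.35 in F0_Ctl. Within F0_Ctl they were thus lowest in F0_Ctl 3, while the members were lowest in F0_Ctl 2. In F0_Dep the astrocyte markers had -0.11, -0.06 and -0.04, against -0.19, -0.30 and -0.38 for the members. Microglia markers had -0.15, -0.27 and -0.34 there. In F0_Dep against F0_Ctl and in F1_Dep against F1_Ctl, microglia markers had medians of -0.25 (9 of 10 lower) and -0.23 (10 of 10 lower). Astrocyte markers had -0.04 (6 of 8 lower) and -0.14 (7 of 8 lower), with none called by edgeR in either list.

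Markers of other cells also differed in these comparisons, and each gene of the lists passed the filter on low counts. Choroid plexus markers had levels of -3.18, -3.57 and 2.64 in F0_Ctl and -1.56, 0.02 and 3.82 in F1_Ctl. Their order matched that of the members in F1_Ctl and not in F0_Ctl, where F0_Ctl 1 was the highest for the members. All 15 choroid plexus markers were lower in F0_Dep than in F0_Ctl (median -2.77) and higher in F1_Dep than in F0_Dep (median 4.01), and 13 of 15 were higher in F1_Dep than in F1_Ctl (median 0.21), none called by edgeR. Dentate granule cell markers had a median of 0.10 in F0_Dep against F0_Ctl and of -1.35 in F1_Dep against F1_Ctl, where 11 of 11 were lower and Plk5 and Tdo2 were called by edgeR (adjusted p = 0.0374 and 0.0439). Their summed levels were 763 to 1025 CPM in F0_Ctl, 841 to 1133 in F0_Dep and 914 to 1196 in F1_Ctl, against 237 to 644 in F1_Dep. Striatum markers had a median of -0.59 in F0_Dep against F0_Ctl (9 of 12 lower). In F1_Dep against F1_Ctl their median was 1.61 (12 of 12 higher), with none called by edgeR in either comparison. Levels of the striatum markers were 2.63, 0.45 and 0.03 in F1_Dep and 0.18, -0.41 and -0.06 in F1_Ctl. In F0_Dep against F0_Ctl, blood markers had a median of -1.44 (5 of 5 lower) and myelin markers -0.50 (8 of 9 lower), with none called by edgeR. Endothelial and pericyte markers had -0.38 (9 of 10 lower), with Itm2a and Rgs5 called by edgeR (adjusted p = 0.0327 and 0.0472). In F1_Dep against F1_Ctl these 3 lists had medians of 0.19, 0.19 and -0.04. Endothelial and pericyte markers summed to 368 to 412 CPM in F0_Ctl and 291 to 315 in F0_Dep, myelin markers to 2170 to 6540 and 2881 to 3189, and blood markers to 50.8 to 206 and 35.0 to 47.1. The part of mitochondrial share, transcript length and these cell markers in the levels of the ribosomal protein genes was not tested. F0_Ctl 3, F1_Ctl 3 and F1_Dep 1 had the highest choroid plexus or striatum markers of their groups or of all libraries. Without these 3 libraries together, the members' medians were -0.32 and -0.34, with 1 and 0 members called by edgeR. The share of all genes called in that fit is not given here. This omission did not even out the choroid plexus markers in F1. They summed to 6414.5 and 6058 CPM in the kept F1_Dep 2 and 3, and to 345 and 985 CPM in the kept F1_Ctl 1 and 2. It therefore cannot show the part of these markers in the medians.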

How the data were processed

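Expected counts per gene, estimates with decimals, were deposited for 12 libraries, and FPKM values per gene were deposited by the authors for 9 of them, all but F1_Ctl. The submitters' processing notes name HISAT2, Cufflinks 2.2.1 and mm10 and give no roles. The counting tool, its annotation and its strand setting are not given in the sources used. Of the per-sample columns, 0 were left unused. Expected counts were rounded to whole numbers, scaled by TMM and filtered with filterByExpr, and 16178 genes were fitted over all 4 groups with edgeR 4.0.16 (R 4.3.3). A gene was called at a Benjamini-Hochberg adjusted p under 0.05 over all genes tested, and all 78 members were tested. Standard errors are approximate, being the fold change over the root of F. FPKM values, taken as log2(FPKM + 1) for genes with at least 1 FPKM in 3 libraries, were fitted with limma 3.58.1. A fold change on that scale understates the change of low genes. CPM are shares of the library total without TMM, and levels are log2 CPM with a prior count of 2 after TMM. DESeq2 1.42.0, limma voom and other alternatives were run as in the closing section. The fit was also run on simulated counts with known changes, in which each gene varied independently. That run cannot show how calls behave for genes that move together, as the members did. Coordinates, biotypes and transcript lengths are those of GENCODE M21 on GRCm38, and copies were found with blastn 2.17.0. Depth was 18277208 to 23083678 counts per library.

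The members, gene lists and tests were chosen with earlier results of these data known. Members named singly are the 5 lowest and the 5 highest fitted changes in F0_Dep against F0_Ctl and in F1_Dep against F1_Ctl, the 5 with the highest mean CPM, the stalk genes, Rpsa, Rps27a and paralogues. Others were named after their values were seen, for a low ratio of counts to FPKM, a copy, a low r, a call in FPKM or the smallest adjusted p. No test was run over a list, and lists are described by counts and medians.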

Additional observations from a re-analysis of the deposited data

How the results depend on the processing

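The fitted median of the members kept its sign under each alternative tried, except that F1_Dep against F0_Ctl had 0.03 without F0_Ctl 1, and the interaction 0.00036 without F1_Ctl 3. With 1 library left out in turn, the counts of members called ran from 0 to 3 in F0_Dep against F0_Ctl (3 without F1_Ctl 1, 1 without F1_Ctl 3), from 0 to 63 in F1_Dep against F1_Ctl, from 0 to 35 in F1_Ctl against F0_Ctl and from 0 to 4 in F1_Dep against F0_Dep (4 without F1_Ctl 1, 1 without F0_Ctl 1). The medians in that omission ran from -0.43 to -0.18, -0.71 to -0.30, 0.19 to 0.59 and 0.13 to 0.25. In F0_Dep against F0_Ctl, limma on log2(FPKM + 1) called 34 members (0 to 62 with 1 library left out, with counts of 11, 12, 17, 18, 21 and 28 between), limma with a pseudocount of 0.1 called 20, DESeq2 and limma voom 3 each, a threshold of 0.1 gave 2, and omission of F0_Ctl 3, F1_Ctl 3 and F1_Dep 1 together, chosen after seeing the data, gave 1. In F1_Dep against F1_Ctl limma voom called 67 and DESeq2 4. In F1_Dep against F0_Dep the fit on these groups alone called 34, limma voom 25, DESeq2 2, limma on FPKM 5 (0 to 21 with 1 library left out, with 1, 2, 8 and 12 between, and medians of 0.21 to 0.32) and 3 with a pseudocount of 0.1. In F1_Dep against F0_Ctl 1 member, Rpl5, was called in the joint omission of these 3 libraries, and limma on FPKM called 0 to 1 (Rps4l) with 1 library left out. The share of members was 3.16% in F0_Ctl, 2.53% in F0_Dep and 2.89% in F1_Dep of the FPKM sum, while of the counts without mitochondrially encoded genes F0_Ctl had 1.08%, F0_Dep 0.819%, F1_Ctl 1.34% and F1_Dep 0.979%. The cause of these changes was not tested, beyond the fewer libraries of an omission. Counts of members called for which no share of all genes is given, here or above, cannot be read as results about the members. These include the counts at a threshold of 0.1, in the joint omission and with a pseudocount of 0.1 in F1_Dep against F0_Dep.

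With 1 library left out in turn, 15 of 78 members changed sign in F0_Dep against F0_Ctl, 14 of them without F0_Ctl 1, and 1 (Rps14) in F1_Dep against F1_Ctl, none of them called by edgeR with all libraries. The same count was 5 in F1_Ctl against F0_Ctl, 18 in F1_Dep against F0_Dep, 51 in F1_Dep against F0_Ctl (50 of them without F0_Ctl 1) and 38 in the interaction. In F0_Dep against F0_Ctl, omission of 1 library moved Rpl10a from -0.15 to 0.15, Rpl28 from -0.24 to 0.048, Rpl41 from -0.26 to 0.078, Rplp2 from -0.36 to 0.082, Rps15a from -0.10 to 0.018, Rps16 from -0.32 to 0.069, Rps20 from -0.19 to 0.16 and Rps27 from -0.14 to 0.36, and limma voom gave Rpl10a 0.046 and Rps20 0.059. Rps27 had -0.10 in limma on FPKM with either pseudocount, and -0.29, -0.19, -0.10, -0.048 and -0.0069 in omissions of 1 library there. In F1_Dep against F1_Ctl, Rps14 ran from -0.27 to 0.20 in omissions and had 0.19 in the joint omission and 0.022 by limma voom.

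The replicate number as a block called 0 members in each comparison and gave medians of -0.32 in F0_Dep against F0_Ctl and -0.49 in F1_Dep against F1_Ctl, and it changed no other call. The labels do not state whether the numbers pair the libraries. Same-numbered libraries of different groups had deviations from their group means with r from -0.176 to 0.498, highest for F0_Ctl 3 with F1_Ctl 3. These r cannot settle whether such libraries share a batch or handling. FPKM fits could not be made where F1_Ctl is compared, nor the fit on the groups compared for the interaction.

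With 3 mice a group, and members that differ this much within F0_Ctl and F1_Ctl, the number of mice limits these comparisons. Members share libraries, so a count of members is not a count of independent observations. Counts of genes with near-identical copies or overlapping genes are uncertain.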
